A study of Drosophila melanogaster with 22 samples.

Results

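Circulating blood cells of wasp-infested Drosophila melanogaster larvae were compared between 48 h and 24 h after infestation. All larvae were of the wild-type Oregon R strain (OreR), and the labels give no transgene or mutation for either group. The 24 h group was collected at 96 h after egg laying and the 48 h group at 120 h after egg laying, so larval age and time since infestation differed together and cannot be told apart within infested larvae. Each group held 3 nanopore libraries, which are 6 of the 22 samples of the study, and 1 Illumina library. Blood of normal, uninfested OreR larvae of the same 2 ages, with 2 nanopore libraries per age, gave the measured age step against which the infested step was set. Normal blood also had 1 Illumina library per age, used for summed lists only. The labels do not name the wasp species. The labels give 100 to 150 larvae per condition, shaken with glass beads to free the hemocytes, and 10 larvae per replicate then opened in medium. They do not say whether the replicates came from separate cultures, so p-values measure only the spread between these libraries, which may be technical.

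Larval hemocytes comprise plasmatocytes, which are macrophage-like and secrete matrix proteins, crystal cells, which store prophenoloxidases for melanization, and lamellocytes, large flat cells that are rare in healthy larvae. After a parasitoid wasp lays an egg in the larva, lamellocytes differentiate, adhere to the egg through integrins and form a layered capsule that is melanized. Lamellocytes are known for abundant actin, a particular set of tubulins, integrin subunits and the surface protein atilla.

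The 6 nanopore libraries held 675469 to 1669533 gene counts each, and 7699 to 8992 genes were detected at 24 h against 9882 to 10670 genes at 48 h. After thinning all 6 to the depth of the shallowest, 7699, 7937 and 8571 genes were detected at 24 h and 9562, 9737 and 10036 genes at 48 h, without overlap. A gene with no read in a library could have been present at up to 1.77 to 4.35 CPM (TMM-normalised counts per library total, scaled as in edgeR), depending on the library. Replicate 1 of both groups stood apart from replicates 2 and 3. The chi-square statistic per degree of freedom between gene counts was 10.0 to 20.4 for pairs with replicate 1, against 2.75 and 2.67 between replicates 2 and 3. Ribosomal protein genes summed to 200380 and 154173 CPM in the 24 h and 48 h replicate 1, against 283125 to 312701 CPM in the other 4 libraries, and summed muscle, cuticle, fat body and salivary gland markers were higher in replicate 1 at 48 h. The count over all genes and those of some lists are therefore also given without replicate 1 of both groups, an alternative added after the data were seen. For the other lists that count is not given here.

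Of 7076 genes tested, 1730 differed between 48 h and 24 h in infested blood (edgeR quasi-likelihood test, Benjamini-Hochberg adjusted p under 0.05), which is 24.4% of the genes tested. Of these, 1070 genes were higher at 48 h, or 15.1%, and 660 were lower, or 9.33%. The 3 libraries of one group lay entirely apart from the 3 of the other for 1664 of the 1730 genes and for 37.3% of all genes tested. The log2 fold change exceeded 1 in size for 1153 called genes, 822 of them higher and 331 lower, and the median of all genes was 0.07. Without replicate 1 of both groups the number called was 1603, of which 1375 were shared with the 1730. The same age step in normal blood gave 299 calls, or 4.23% of genes, with 156 higher (2.2%) and 143 lower (2.02%), and a median of 0.09. The 2 steps share no library. They shared 168 calls, 162 of them in the same direction. That is 9.71% of the infested calls and 56.2% of the normal calls. The size of the step itself differed between infested and normal blood for 141 genes, or 1.99%, with the infested change above the normal change for 64 (0.904%) and below it for 77 (1.09%). Which of these was the larger depended on the setting, since 61.0% lay above with limma voom, 50.4% with RLE size factors and 52.2% without infested 24 h replicate 1 or without normal 120 h replicate 2. Of the normal-step calls, 47.9% were higher with DESeq2. The normal groups held 2 libraries each, so fewer calls there do not show a smaller step. With the replicate number as a block the normal step gave 529 calls and the difference 278.

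Genes of the lamellocyte list rose together. For this and the later lists, the shares over all genes tested were 15.1% higher and 9.33% lower. Of its 12 members, all tested, 10 were higher at 48 h and none was lower, with a median log2 fold change of 1.54. Without replicate 1 of both groups the count was again 10 of 12. The list summed to 4627 to 5064 CPM at 24 h and 12292 to 16270 CPM at 48 h, against 380 to 404 CPM at 96 h and 528 to 557 CPM at 120 h in normal blood. The exact two-sided permutation test of the sums gave p = 0.1, the smallest that 3 against 3 libraries can give. In normal blood 2 of the 12 were higher and 1 was lower at the later age. By Illumina the list sum rose from 18595 to 38063 CPM in infested and from 2330 to 5578 CPM in normal blood. In bulk RNA, more cells of a type and more RNA per cell cannot be told apart.

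The surface protein gene atilla (FBgn0032422, chromosome arm 2L, positions 12175451 to 12177886, minus strand, of the BDGP6.54 annotation) stood at 1277, 1446 and 1333 CPM in the 24 h libraries and at 2240, 4870 and 4479 CPM in the 48 h libraries. Every 48 h library lay above every 24 h library, and replicate 1 at 48 h was the lowest of its group. The log2 fold change was 1.51 ± 0.37 (SE, n = 3 per group, edgeR adjusted p = 0.00816). The integrin alpha subunit gene ItgaPS4 (FBgn0034005, arm 2R, 15258761 to 15262873, plus strand) stood at 105, 94.8 and 94.3 CPM at 24 h and at 269, 610 and 584 CPM at 48 h. Its groups did not overlap either, and its log2 fold change was 2.32 ± 0.27 (SE, edgeR adjusted p = 1.24e-04). The beta-tubulin isotype gene betaTub60D (FBgn0003888, arm 2R, 24305881 to 24313099, plus strand) stood at 1664, 1261 and 1317 CPM at 24 h and at 5884, 5918 and 5788 CPM at 48 h. The 48 h libraries were close to one another and all well above 24 h, at a log2 change of 2.05 ± 0.29 (SE, edgeR adjusted p = 1.75e-04). In normal blood betaTub60D also rose with age, from 3.90 and 5.24 CPM to 120 and 132 CPM, and the difference between the 2 steps did not pass (edgeR adjusted p = 0.0572).

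The beta integrin subunit gene mys stood at 275, 224 and 248 CPM at 24 h and at 670, 694 and 673 CPM at 48 h. These groups lay apart with little spread within either, and the log2 fold change was 1.45 ± 0.15 (SE, edgeR adjusted p = 2.14e-05). In normal blood mys stood at 55.0 to 67.6 CPM at both ages, and the difference of the steps was 1.24 ± 0.26 (SE, log2, edgeR adjusted p = 0.0240). This call on the difference was lost with library totals (0.113), without 48 h replicate 2 (0.0515), 24 h replicate 2 (0.0612) or 24 h replicate 3 (0.0530), and without any 1 of the 4 normal libraries (0.0949 to 0.122), all by edgeR. The trehalose transporter gene Tret1-1 rose from 70.8, 70.6 and 82.7 CPM to 238, 205 and 219 CPM (log2 fold change 1.57 ± 0.17 SE, edgeR adjusted p = 2.18e-05). The other members that rose were the filamin gene cher (1.59), the talin gene rhea (1.93), the lamin gene LamC (1.48), the receptor gene mthl4 (1.57) and the kinase gene msn (1.10), all as log2 fold changes. The call for msn was lost without replicate 1 of both groups (edgeR adjusted p = 0.0590) and without several single libraries.

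**Figure D1:**
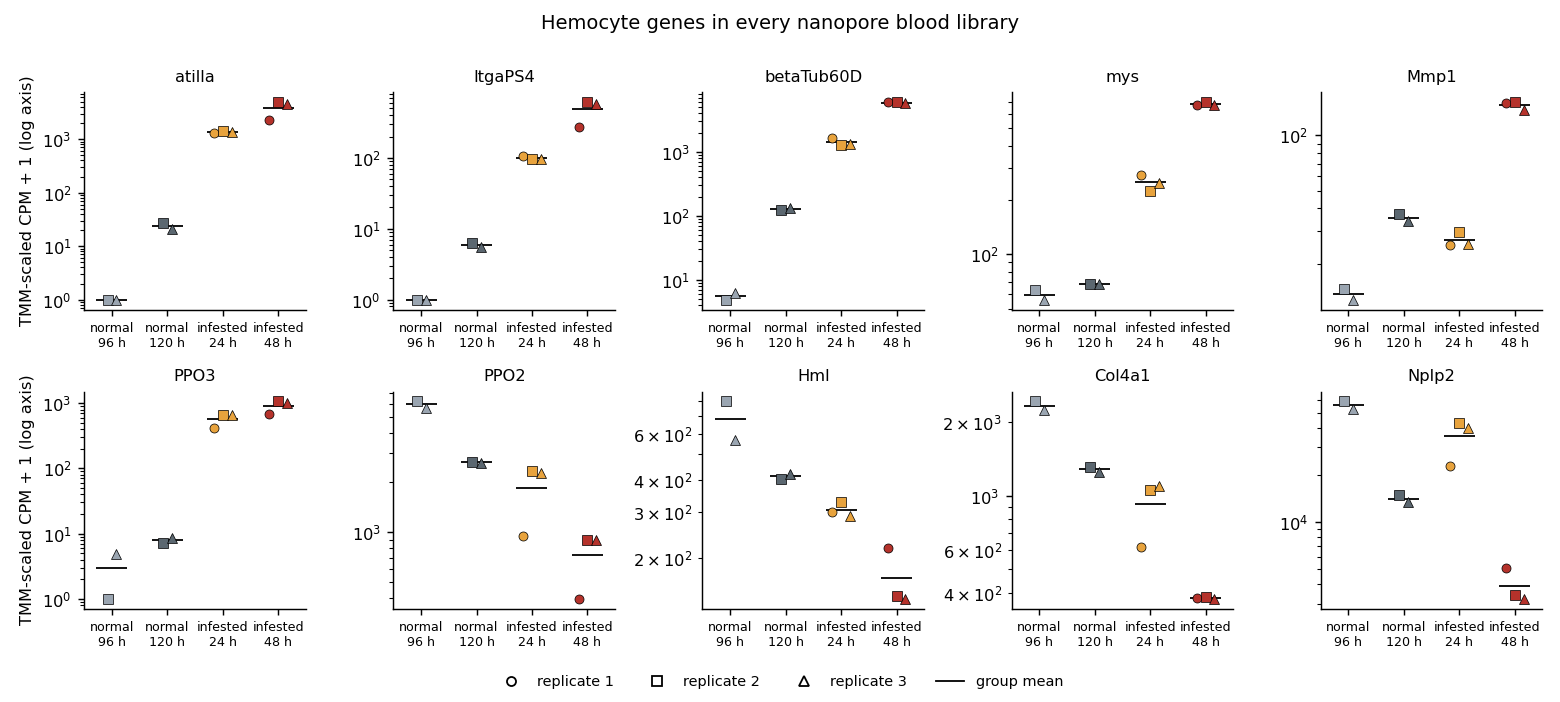
Normalised CPM plus 1 on a log axis for 10 hemocyte genes in each nanopore blood library, with normal blood at 96 h and 120 h and infested blood at 24 h and 48 h after infestation; markers show replicates and lines the group means. The 48 h libraries lie above the 24 h libraries for atilla, ItgaPS4, betaTub60D, mys, Mmp1 and PPO3, and below them for Hml, Col4a1 and Nplp2.

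The 3 prophenoloxidase genes encode the zymogens of the melanizing enzyme; PPO1 and PPO2 are crystal cell genes and PPO3 a lamellocyte gene. PPO2 stood at 940.5, 2330 and 2263 CPM at 24 h and at 393, 894 and 892 CPM at 48 h. Replicate 1 was the lowest of its group at both times, and the groups did not overlap. PPO2 fell by 1.34 on the log2 scale (± 0.38 SE, edgeR adjusted p = 0.0165). That call was lost without 48 h replicate 1 (adjusted p = 0.0572), 24 h replicate 2 (0.0740) or 24 h replicate 3 (0.0632), all by edgeR. PPO1 stood at 535, 1147 and 1111 CPM and then at 226, 537 and 543 CPM. The ranges overlapped, since replicate 1 at 24 h lay just below replicates 2 and 3 at 48 h, and its log2 fold change of -1.10 ± 0.40 (SE) missed the threshold (edgeR adjusted p = 0.0584). It passed in some other edgeR settings, among them the replicate number as a block (adjusted p = 0.00666) and library totals (0.0319). It also passed without 24 h replicate 1 (edgeR adjusted p = 0.0209) and without replicate 1 of both groups (0.0451). The call of PPO1 thus depended on the setting. PPO3 stood at 413, 653 and 664 CPM at 24 h and at 690, 1063 and 1001 CPM at 48 h. The groups did not overlap, yet its log2 fold change of 0.67 ± 0.28 (SE) did not pass (edgeR adjusted p = 0.0983), although it did with the block (0.00301) and without 48 h replicate 1 (0.0343).

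Of the 9 members of the crystal cell list, 4 fell, none rose and 5 did not pass, with a median log2 fold change of -1.58. The number that fell was 1 without 48 h replicate 1 or without 24 h replicate 2, 2 without 48 h replicate 2 or without 24 h replicate 3, and 1 with infested blood libraries alone. The list summed to 1833 to 4442 CPM at 24 h and 773 to 1730 CPM at 48 h, and these ranges did not overlap. CG17109, known by its annotation number, fell by 2.27 on the log2 scale (± 0.23 SE, edgeR adjusted p = 1.75e-05), from 96.7, 144 and 148 CPM to 28.3, 28.4 and 23.0 CPM. It also fell with age in normal blood, from 392 and 350 CPM to 50.4 and 55.6 CPM. The other members that fell were peb, a zinc finger factor, and fok. The call for fok was lost when 1 of 4 libraries was left out, with edgeR adjusted p from 0.0522 to 0.101. The Runx factor gene lz, which specifies crystal cells, stood at 1.73, 5.89 and 4.35 CPM at 24 h and at 0, 1.98 and 0 CPM at 48 h, a difference that did not pass (edgeR adjusted p = 0.141). The Notch receptor gene N, known to act in crystal cell fate, fell by 1.15 on the log2 scale (± 0.26 SE, edgeR adjusted p = 0.00451). It also fell with age in normal blood, by 1.27 (± 0.30 SE, edgeR adjusted p = 0.0272).

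Of 15 plasmatocyte genes tested among 16 listed, 9 fell, none rose and 6 did not pass, with a median log2 fold change of -0.84. Without replicate 1 of both groups 10 fell. The list summed to 6364 to 9297 CPM at 24 h and to 4456 to 4615 CPM at 48 h, and its normal-step median was -0.24. By Illumina the sum fell from 78056 to 39024 CPM in infested and from 113640 to 29183 CPM in normal blood. The clotting protein gene Hml stood at 299, 327 and 289 CPM at 24 h and at 218, 143 and 139 CPM at 48 h. All 48 h values were below all 24 h values, and Hml fell by 0.88 on the log2 scale (± 0.20 SE, edgeR adjusted p = 0.00424). The phagocytosis receptor gene NimC1 stood at 787, 800.5 and 837 CPM and then at 622, 396 and 386 CPM. Replicate 1 at 48 h was nearest to the 24 h range without entering it, and NimC1 fell by 0.79 (log2, ± 0.19 SE, edgeR adjusted p = 0.00667). The difference of its step from normal blood, where it stood at 640 and 710 CPM and then 860 and 835 CPM, did not pass (edgeR adjusted p = 0.0717). Of the 4 prohemocyte genes tested none was called in the main edgeR fit, by DESeq2 or by limma voom. None had an unadjusted p under 0.05 in the main fit. CHES-1-like was called higher without replicate 1 of both groups (log2 fold change 2.57, edgeR adjusted p = 0.0193). It was also called without 24 h replicate 1 (2.43, edgeR adjusted p = 0.0192). The progenitor marker Tep4 stood at 82.0 to 113 CPM at 24 h and 71.3 to 110 CPM at 48 h, and these ranges overlapped.

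Genes of the extracellular matrix, several of which are also on the plasmatocyte list, fell. Of 14 tested among 15 listed, 10 fell and 1 rose, with a median of -0.98 against -0.31 in the normal step. By Illumina the list sum fell from 64086 to 30875 CPM in infested and from 95528 to 27011 CPM in normal blood. The type IV collagen gene Col4a1 stood at 616, 1050 and 1091 CPM at 24 h and at 379, 384 and 378 CPM at 48 h. Its 48 h libraries were nearly equal and all below 24 h, and it fell by 1.27 on the log2 scale (± 0.19 SE, edgeR adjusted p = 2.66e-04). Its partner chain gene vkg fell by 1.302 (± 0.21 SE, edgeR adjusted p = 4.25e-04). The papilin gene Ppn fell by 1.66 (± 0.21 SE, edgeR adjusted p = 7.15e-05), and by 2.03 in the normal step. The others that fell encode tiggrin (Tig), SPARC, peroxidasin (Pxn), glutactin (Glt) and the laminin chains LanA, LanB1 and LanB2, by 0.84 to 1.09. The member that rose was Mmp1 (FBgn0035049, arm 2R, 24671294 to 24688184, minus strand), a matrix metalloproteinase. It stood at 24.2, 28.8 and 24.7 CPM at 24 h and at 149, 150 and 137 CPM at 48 h. Those groups lay far apart, at a log2 change of 2.47 ± 0.17 (SE, edgeR adjusted p = 7.52e-07). Mmp1 also rose in normal blood, from 13.7 and 11.8 CPM to 36.2 and 33.1 CPM, and the difference of the steps did not pass (edgeR adjusted p = 0.273).

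Integrin and adhesion genes rose as a group. Of 17 tested among 18 listed, 11 rose and none fell, with a median log2 fold change of 1.42. In normal blood none of them rose, 1 fell and the median was 0.27. The Illumina sum of these genes rose from 8133 to 15552.5 CPM in infested and from 1741 to 2686 CPM in normal blood. The infested step exceeded the normal step for 3 of them by the test of the difference. Integrin-linked kinase, Ilk, stood at 100, 85.3 and 98.7 CPM at 24 h and at 212, 253 and 254 CPM at 48 h. Its groups did not overlap, its log2 fold change was 1.34 ± 0.16 (SE, edgeR adjusted p = 5.33e-05), and the difference of the steps was 1.14 ± 0.28 (SE, log2, edgeR adjusted p = 0.0492). The latter did not pass with the replicate block (edgeR adjusted p = 0.0584), with library totals (0.0918) or when 1 library other than 48 h replicate 1 was left out (0.0539 to 0.203). The kindlin gene Fit1 rose from 93.3, 112 and 100 CPM to 251, 436 and 452 CPM, which is 1.90 ± 0.23 in log2 (SE, edgeR adjusted p = 5.14e-05). The alpha subunit gene mew (2.69), the vinculin gene Vinc (1.77), the beta subunit gene Itgbn (1.73), stck (1.42), the paxillin gene Pax (1.19) and parvin (1.02) rose as well, given as log2 fold changes. ItgaPS4, rhea and mys are on this list and on the lamellocyte list.

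Microtubule genes rose in 10 of 12 cases and fell in none, with a median of 1.16 against 0.30 in normal blood, where 3 rose. By Illumina the list sum rose in both, from 19447.5 to 41444 CPM in infested and from 5614 to 14522 CPM in normal blood. The plus-end binding protein gene Eb1 stood at 333, 367 and 379 CPM at 24 h and at 978, 1152 and 1176 CPM at 48 h. These ranges were far apart, and the log2 fold change was 1.62 ± 0.13 (SE, edgeR adjusted p = 3.45e-06). In normal blood Eb1 stood at 162 to 214 CPM at both ages, and the difference of the steps was 1.41 ± 0.21 (SE, log2, edgeR adjusted p = 0.00391), which did not pass without normal 96 h replicate 3 (0.0533). The microtubule-associated gene Jupiter rose by 1.45 ± 0.15 on the log2 scale (SE, edgeR adjusted p = 2.18e-05), and by 1.12 ± 0.19 in normal blood. The isotype gene alphaTub85E rose from 2060, 1768 and 1719 CPM to 7366, 6495 and 6108 CPM, while the widely expressed alphaTub84B rose by 0.82 (log2). Reads of near-identical tubulin and actin copies could have been split between genes in the counting, so single copies are uncertain.

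Of 33 actin cytoskeleton genes, 20 rose and 1 fell, with a median of 0.63 against 0.32 in normal blood, where 1 rose. By Illumina the list sum rose from 38351 to 55948 CPM in infested and from 21025 to 50612 CPM in normal blood. The cytoplasmic actin gene Act5C stood at 5645, 5192 and 5278 CPM at 24 h and at 10929, 13631 and 13532 CPM at 48 h. The groups did not overlap, and the log2 fold change was 1.24 ± 0.17 (SE, edgeR adjusted p = 1.58e-04). The GTPase gene Rac2, which hemocytes need to encapsulate wasp eggs, rose from 168, 156 and 165 CPM to 261, 469 and 530 CPM (1.36 ± 0.20 log2, SE, edgeR adjusted p = 2.81e-04). The monomer-binding twinfilin gene twf rose by 1.61 ± 0.16 (log2, SE, edgeR adjusted p = 1.75e-05), and the bundling genes sn and Fim by 1.49 and 1.34. Nucleation genes of the Arp2/3 complex that rose, Arp2, Arp3, Arpc1 and Arpc2, changed by 0.61 to 0.82. The gelsolin gene Gel fell by 1.14. With library totals in place of scaling factors, 16 of the 33 rose.

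**Figure D2:**
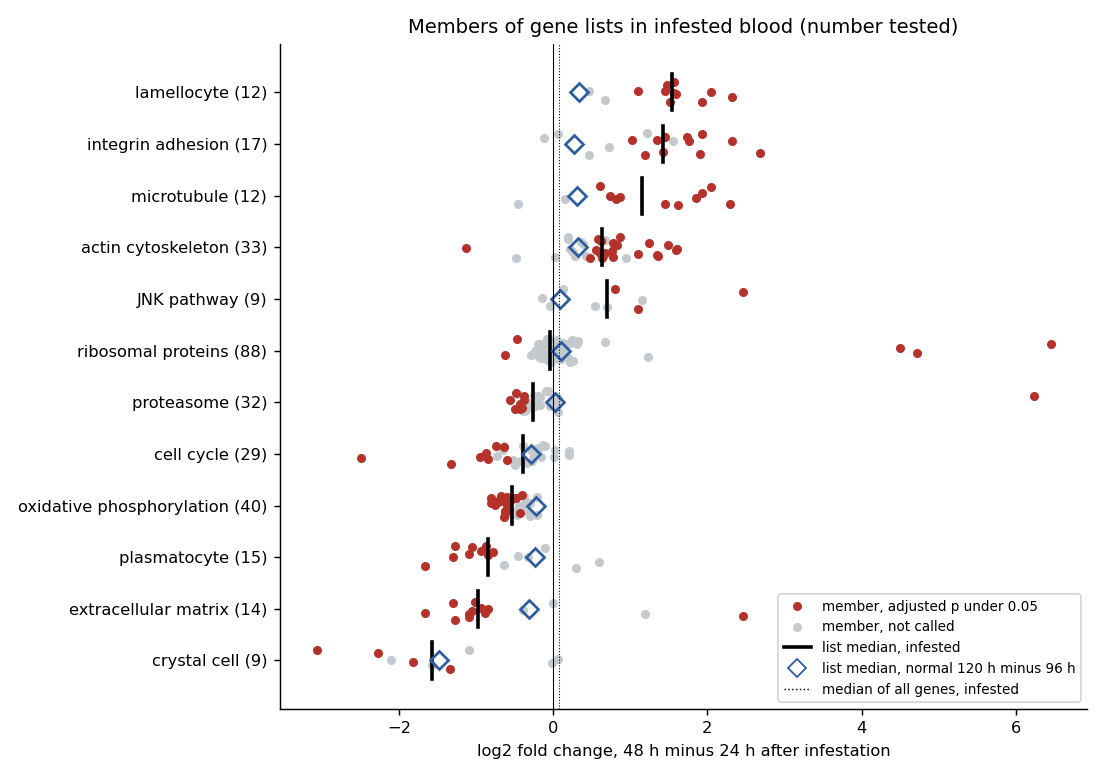
Log2 fold change, infested blood 48 h against 24 h, of each tested member of 12 gene lists; red points passed the test and grey points did not, black bars mark the list medians, blue diamonds the medians of the same lists in the normal step and the dotted line the median of all genes, 0.07. Lamellocyte, integrin, microtubule and actin lists lie to the higher side, with medians of 1.54, 1.42, 1.16 and 0.63, and matrix, plasmatocyte and crystal cell lists to the lower side, with medians of -0.98, -0.84 and -1.58.

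Among genes with at least 20 CPM in both groups, a limit added after values were seen so as to name well-covered genes, rdgB had the largest rise of those that carry a name beyond an annotation number. This phosphatidylinositol transfer protein gene stood at 48.4, 101 and 103.01 CPM at 24 h and at 119, 844 and 866 CPM at 48 h. Replicate 1 was low at both times, and the groups did not overlap. The log2 fold change was 2.86 ± 0.58 (SE, edgeR adjusted p = 0.00235). The axon degeneration gene axed showed the same ordering of libraries, at 155, 205 and 251 CPM and then 301, 1352 and 1878 CPM (2.54 ± 0.55, SE, edgeR adjusted p = 0.00338). The aquaporin gene Drip rose from 63.0, 69.5 and 75.4 CPM to 220, 363 and 313 CPM (2.12 ± 0.21, SE, edgeR adjusted p = 2.66e-05). The others of this kind encode a rhophilin (Rhp, 2.06), an adenylate kinase (Ak1, 1.97), a diacylglycerol kinase (Dgk, 1.96), a claudin of septate junctions (kune, 1.95) and a rhomboid family member (rho-6, 2.15), given as log2 fold changes.

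Several genes known by an annotation number and several non-coding genes rose. CG12655 (FBgn0031080, X chromosome, 19958393 to 19959403, minus strand) stood at 29.4, 24.7 and 15.96 CPM at 24 h and at 277, 268 and 256 CPM at 48 h. Its 48 h libraries were close together and far above the others, at a log2 change of 3.47 ± 0.20 (SE, edgeR adjusted p = 2.43e-07), and in normal blood it had 0 CPM at 96 h and 2.099 and 1.502 CPM at 120 h. CG6357 rose from 91.5, 126 and 157 CPM to 529, 784 and 875 CPM (2.56 ± 0.21, SE, edgeR adjusted p = 3.45e-06). The long non-coding RNA gene lncRNA:marge (FBgn0263380, arm 3L, 14976626 to 14977631, minus strand) stood at 42.3, 80.0 and 75.4 CPM and then at 361, 341 and 335 CPM. Its groups lay apart at a log2 change of 2.39 ± 0.23 (SE, edgeR adjusted p = 1.75e-05). The unannotated BIGFLY-novelRNA-269, a gene of the authors' assembly, rose from 5.18, 5.89 and 4.35 CPM to 50.3, 66.0 and 50.5 CPM (3.37 ± 0.41, SE, edgeR adjusted p = 1.58e-04). Its normal libraries held at most 1.05 CPM.

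The neuropeptide-like precursor gene Nplp2 (FBgn0040813, arm 3L, 13356376 to 13357223, plus strand) stood at 22790, 43167 and 40141 CPM at 24 h and at 5106, 3407 and 3236 CPM at 48 h. Every 48 h library was far below every 24 h library. Nplp2 fell by 3.17 on the log2 scale (± 0.34 SE, edgeR adjusted p = 2.18e-05), and in normal blood by 1.99 (± 0.40 SE, edgeR adjusted p = 0.00885). The difference of the 2 steps did not pass (edgeR adjusted p = 0.266). Pebp1 (FBgn0038973, arm 3R, 22466034 to 22466679, plus strand), of the phosphatidylethanolamine-binding protein family, stood at 1584, 921 and 943 CPM and then at 42.9, 18.5 and 13.8 CPM. It fell by 5.53 (± 0.63 SE, edgeR adjusted p = 3.78e-05), while normal blood held 40.6 to 69.4 CPM at both ages, and the difference of the steps was -5.07 ± 0.96 (SE, edgeR adjusted p = 0.0139). That difference did not pass without normal 120 h replicate 2, normal 96 h replicate 2 or normal 96 h replicate 3 (edgeR adjusted p from 0.0736 to 0.0871). The alcohol dehydrogenase gene Adh fell by 2.93 (± 0.52 SE, edgeR adjusted p = 9.46e-04), and Eglp4, of the aquaporin family, by 2.14 (± 0.16 SE, edgeR adjusted p = 2.72e-06). The acyl-CoA binding protein gene Acbp4 stood at 750, 357 and 358 CPM at 24 h and had no read at 48 h. Against a floor of 3 counts over the 3 libraries of the 48 h group, which is 0.898 CPM, it was at least 544-fold lower (edgeR adjusted p = 1.74e-04).

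Genes of larval organs other than blood moved with time as well. All 13 tested genes of the midgut list, of 18 listed, fell, with a median log2 fold change of -5.15, while in normal blood none was called and the median was 1.12. Without replicate 1 of both groups 11 of them fell. The midgut list summed to 3950, 2917 and 2777 CPM at 24 h and to 77.5, 39.6 and 36.7 CPM at 48 h. In normal blood it summed to 330 and 369 CPM at 96 h and 715 and 770 CPM at 120 h. In the Illumina libraries, which have no replicates, the sum fell in both. It went from 1962 to 23.7 CPM in infested and from 63.4 to 6.66 CPM in normal blood. The digestive serine protease gene Jon65Aiv (FBgn0250815, arm 3L, 6039155 to 6040135, plus strand) stood at 1489, 1037 and 965 CPM at 24 h and at 9.43, 11.9 and 9.18 CPM at 48 h. It fell by 6.80 on the log2 scale (± 0.80 SE, edgeR adjusted p = 4.37e-05), and the difference from the normal step was -7.80 ± 1.13 (SE, edgeR adjusted p = 0.00280). Jon25Bi fell by 8.30 (± 0.93 SE, edgeR adjusted p = 3.02e-05), and the infested step lay below the normal step for 9 of the 13 genes. Jonah and Lysozyme genes are near-identical copies, so single members are uncertain. The listed genes betaTry and Amy-p had no read.

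The male germline list moved the other way. All 6 genes tested of 10 listed rose, with a median of 6.50, or 5.62 with genes without reads at 24 h set at their lower bound, and in normal blood none was called and the median was 1.71. Genes of this and of the midgut list passed the filter on low counts through the libraries in which they were high, so their shared direction is no separate support. The list summed to 14.7, 0 and 1.45 CPM at 24 h and to 262, 504 and 451 CPM at 48 h. In normal blood it summed to 31.2 and 28.8 CPM and then 142 and 110 CPM. By Illumina the sum rose from 9.56 to 180 CPM in infested blood and from 19.8 to 1143 CPM in normal blood, the larger rise of these. The sperm protein gene Mst84Da had no read at 24 h and stood at 25.1, 84.5 and 59.7 CPM at 48 h. Against a floor of 3 counts over the 24 h group, 0.846 CPM, it was at least 66.7-fold higher (edgeR adjusted p = 2.15e-04). The protamine gene ProtA was at least 30.4-fold higher (edgeR adjusted p = 3.85e-04), the spermatid individualization gene soti at least 25.0-fold (4.95e-04) and the sperm aminopeptidase gene S-Lap8 at least 29.3-fold (6.90e-04). These belong to 195 called genes that had no read in any 24 h library and a median of 12.9 CPM at 48 h. Of the 195, 190 had reads in normal blood at 120 h and 91 at 96 h, and 134 are known by an annotation number alone. In the Illumina pair 191 of the 195 had at least 1 CPM at 48 h and 22 had that at 24 h.

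Of 17 muscle genes 11 fell and 2 rose, with a median of -1.50, against 11 falls and a median of -2.52 in normal blood. They summed to 3079, 1195 and 1370 CPM at 24 h and to 1405, 603 and 668 CPM at 48 h, so replicate 1 at 48 h lay within the 24 h range. The number of muscle genes that fell was 6 without 24 h replicate 1, 48 h replicate 2 or 48 h replicate 3, and in the Illumina pair the list summed to 1186 CPM at 24 h and 1359 CPM at 48 h. Cuticle genes fell in 7 of 10 cases, with a median of -4.19 (-3.88 with unread genes at their bounds), and summed to 1943, 911 and 942 CPM and then to 329, 74.6 and 87.3 CPM. Without 48 h replicate 2 the number of cuticle genes that fell was 4 of 8 tested. Of 12 fat body genes 2 rose and 2 fell, and they summed to 1933 to 2660 CPM at 24 h and to 3860, 831 and 881 CPM at 48 h. None rose and 5 fell without 48 h replicate 1, and none rose with DESeq2, with library totals, without 24 h replicate 2 or without 24 h replicate 3. At most 2 rose and at most 2 fell when 1 of the other libraries was left out. Salivary gland genes rose in 2 of 6 cases, in 6 with the replicate block and in 0 to 6 when 1 library was left out, with sums of 0.864, 1.18 and 0 CPM and then 689, 11.2 and 10.3 CPM. The glue protein gene Sgs7 stood at 181, 3.96 and 3.44 CPM at 48 h, so its level there rests on replicate 1, and its call was lost without 24 h replicate 2 (edgeR adjusted p = 0.0609). DESeq2 called none of the salivary gland genes. The neuron and glia genes tested, 6 of 10, held 2 that rose, and repo had no read. Over all genes tested 15.1% rose and 9.33% fell, so the small fat body and neuron counts do not show a shift of those lists. What part these organs' RNA has in the changes of the hemocyte lists was not tested.

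**Figure D3:**
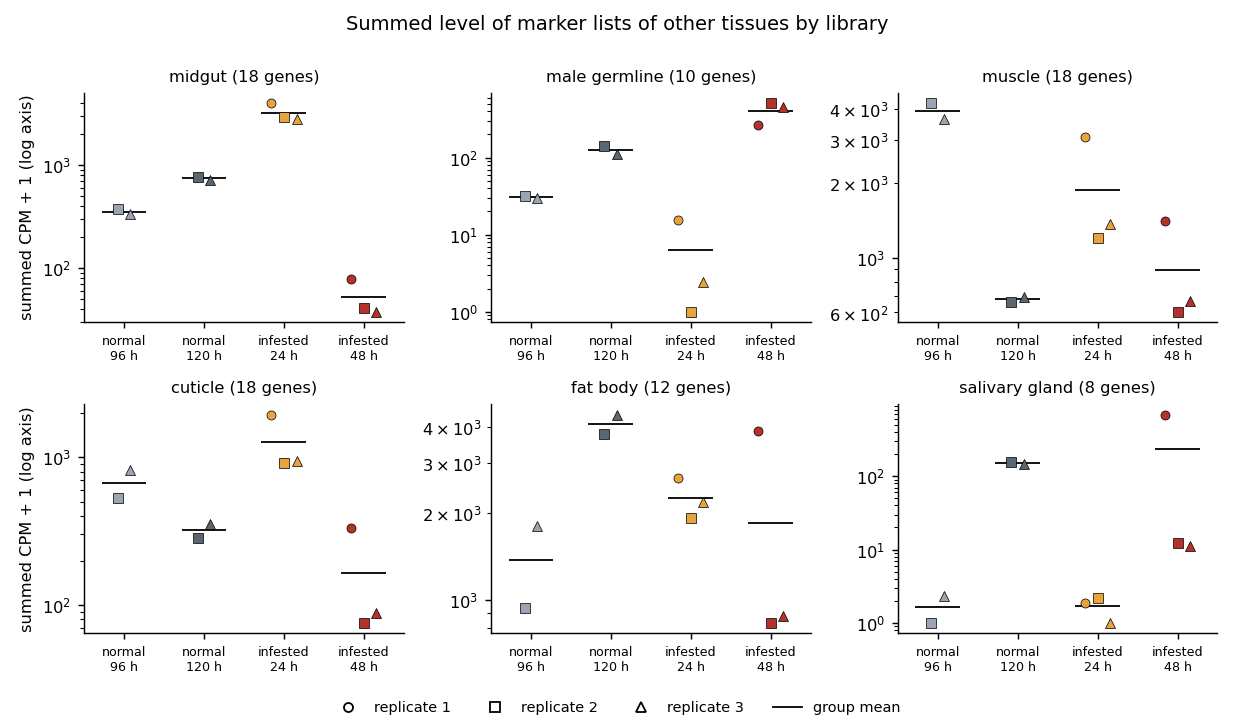
Summed CPM plus 1 on a log axis of marker lists for midgut, male germline, muscle, cuticle, fat body and salivary gland in each nanopore blood library. Midgut sums fall from 2777 to 3950 CPM at 24 h to 36.7 to 77.5 CPM at 48 h in infested blood, male germline sums rise from at most 14.7 CPM to at least 262 CPM, and replicate 1 is the highest 48 h library of infested blood for salivary gland, fat body, muscle and cuticle.

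The lists of the Toll, Imd, JAK-STAT, JNK and Notch pathways, melanization, antimicrobial peptides, bomanins and growth factors held 1 to 3 called genes each. Of all genes tested, 24.4% were called. Calls were 2 of 12 tested for Toll, 3 of 13 for Imd, 2 of 11 for JAK-STAT, 3 of 9 for JNK and 2 of 10 for Notch. They were 1 of 9 for antimicrobial peptides and 3 of 9 for growth factors. In the melanization list 1 of 7 tested rose and 2 fell. Such small counts do not show a response of a pathway. Of 4 bomanin genes tested, which encode short secreted immune peptides, 2 rose (IM18 and BomT2) and 1 fell (IM33). BomT2 rose from 1.73, 0.589 and 1.45 CPM to 24.1, 13.9 and 13.8 CPM (edgeR adjusted p = 0.00198). The calls for IM18 and IM33 were lost without single libraries (edgeR adjusted p up to 0.0571 and 0.0913). Drs, the antifungal peptide drosomycin, was the 1 antimicrobial peptide gene of 9 tested that was called. It rose from 8.64, 19.4 and 17.4 CPM to 53.4, 121 and 103.3 CPM (2.61 ± 0.36 log2, SE, edgeR adjusted p = 1.43e-04), and by 2.69 ± 0.53 in normal blood. The JAK-STAT ligand gene upd3 stood at 3.45, 8.83 and 8.70 CPM and then at 11.5, 53.5 and 39.0 CPM, or 2.32 ± 0.52 in log2 (SE, edgeR adjusted p = 0.00434). Its call was lost without 48 h replicate 2 (edgeR adjusted p = 0.0547). Ptp61F, a phosphatase that restrains JAK-STAT signalling, rose by 1.39 ± 0.24 (log2, SE, edgeR adjusted p = 8.36e-04). The Toll ligand gene spz fell by 0.76 (log2, ± 0.17 SE, edgeR adjusted p = 0.00408) and the inhibitor gene cact by 0.67 (± 0.22 SE, adjusted p = 0.0327), a call that was lost when 1 of 4 libraries was left out (edgeR adjusted p from 0.0698 to 0.194). In the Imd list the adaptor gene key rose by 0.99 ± 0.19 (log2, SE, edgeR adjusted p = 0.00147). The FGF receptor gene btl rose from 4.32, 3.53 and 1.45 CPM to 12.6, 24.4 and 19.5 CPM (edgeR adjusted p = 0.00669). The FGF-like ligand gene pyr and the PDGF- and VEGF-like ligand gene Pvf2 also rose, by 1.68 and 1.86 (log2). The call for Pvf2 was lost without 48 h replicate 3 (edgeR adjusted p = 0.0559). That for pyr was lost without replicate 2 or 3 of either time (edgeR adjusted p from 0.0533 to 0.134) and with DESeq2 (0.0587). The dopachrome-converting enzyme gene yellow-f rose by 1.19 ± 0.19 (log2, SE, edgeR adjusted p = 4.91e-04), and by 1.34 ± 0.25 in normal blood. Spn27A, a serpin that inhibits the melanization protease, fell by 0.83 (± 0.22 SE, edgeR adjusted p = 0.0112), and did not pass without 48 h replicate 2 (adjusted p = 0.0627).

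Of 40 nuclear-encoded genes of oxidative phosphorylation, 24 fell and none rose, with a median log2 fold change of -0.54. In the normal step 1 fell and the median was -0.23. Their Illumina sum fell from 10473 to 7159 CPM in infested and from 9731 to 6201 CPM in normal blood. With library totals in place of scaling factors 14 fell, with infested blood libraries alone 15, without 48 h replicate 3 also 15, and without replicate 1 of both groups 22. With replicates 2 and 3 summed into 1 library 3 of the 40 fell. The ATP synthase subunit gene ATPsynG stood at 1143, 1287 and 1190 CPM at 24 h and at 773, 714 and 662 CPM at 48 h. Its groups did not overlap, and it fell by 0.75 (log2, ± 0.13 SE, edgeR adjusted p = 6.17e-04). Of 24 tested genes of the mitochondrial genome none was called by edgeR, DESeq2 or limma voom, 1 had an unadjusted p under 0.05, and 7 fell with the replicate block. Of 29 cell cycle genes 8 fell and none rose, among them the replication clamp gene PCNA (-0.74 ± 0.12, log2, SE, edgeR adjusted p = 5.44e-04) and the mitotic kinase gene aurB (-0.95 ± 0.18, edgeR adjusted p = 0.00173). Without replicate 1 of both groups 4 of the 29 fell, as without 24 h replicate 2. Of 32 proteasome genes tested 9 fell and 1 rose, but with library totals 1 fell, and 3 to 6 fell when 1 library was left out. Over all genes tested 9.33% fell and 15.1% rose. Of 88 ribosomal protein genes 3 rose and 2 fell, with a median of -0.04 that was 0.28 without 48 h replicate 1. The 3 that rose, RpL10Aa, RpL37-2 and RpS5b, are second copies of their gene.

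For some genes the step in infested blood differed from that in normal blood. The protease gene Jon99Ciii had the smallest p of the difference: it stood at 76.003, 61.2 and 49.3 CPM and then 7.33, 6.60 and 5.74 CPM in infested blood, and at 15.6 and 18.3 CPM and then 76.1 and 90.1 CPM in normal blood. It fell in the one and rose in the other, and the difference was -5.49 ± 0.41 (log2, SE, edgeR adjusted p = 2.71e-04). The globin gene glob1 rose in infested blood from 96.7, 115.4 and 122 CPM to 141, 224 and 189 CPM (0.74 ± 0.16 log2, SE, edgeR adjusted p = 0.00330). In normal blood it fell from 85.9 and 83.8 CPM to 27.8 and 33.1 CPM, and the difference was 2.24 ± 0.28 (SE, edgeR adjusted p = 0.00124). The metallothionein gene MtnA stood at 331, 417 and 382 CPM and then at 327, 511 and 422 CPM in infested blood, ranges that overlapped. In normal blood it fell by 2.45 (± 0.29 SE), and the difference was 2.61 ± 0.36 (log2, SE, edgeR adjusted p = 0.00203). CG42394 and lncRNA:CR40469 likewise did not pass in infested blood (edgeR adjusted p = 0.107 and 0.272, or 0.0111 and 0.0255 with the replicate block) but fell in normal blood by 2.88 and 5.25 (log2). The glutamine synthetase gene Gs1 stood at 18.9 to 24.7 CPM at 24 h and 23.0 to 25.7 CPM at 48 h, and rose in normal blood from 19.5 and 13.1 CPM to 136 and 156 CPM (difference -3.03 ± 0.38 log2, SE, edgeR adjusted p = 0.00124). The cuticle protein gene Cpr49Ac rose by 4.83 ± 0.42 in normal blood (log2, SE). In infested blood its change of 0.90 ± 0.31 passed (edgeR adjusted p = 0.0470) but not without 48 h replicate 1, 24 h replicate 2 or 24 h replicate 3 (0.101 to 0.216). The number of such genes depended on single libraries, since it was 23 without normal 120 h replicate 2, 26 without normal 96 h replicate 3 and 246 without infested 48 h replicate 1, against 141.

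**Figure D4:**
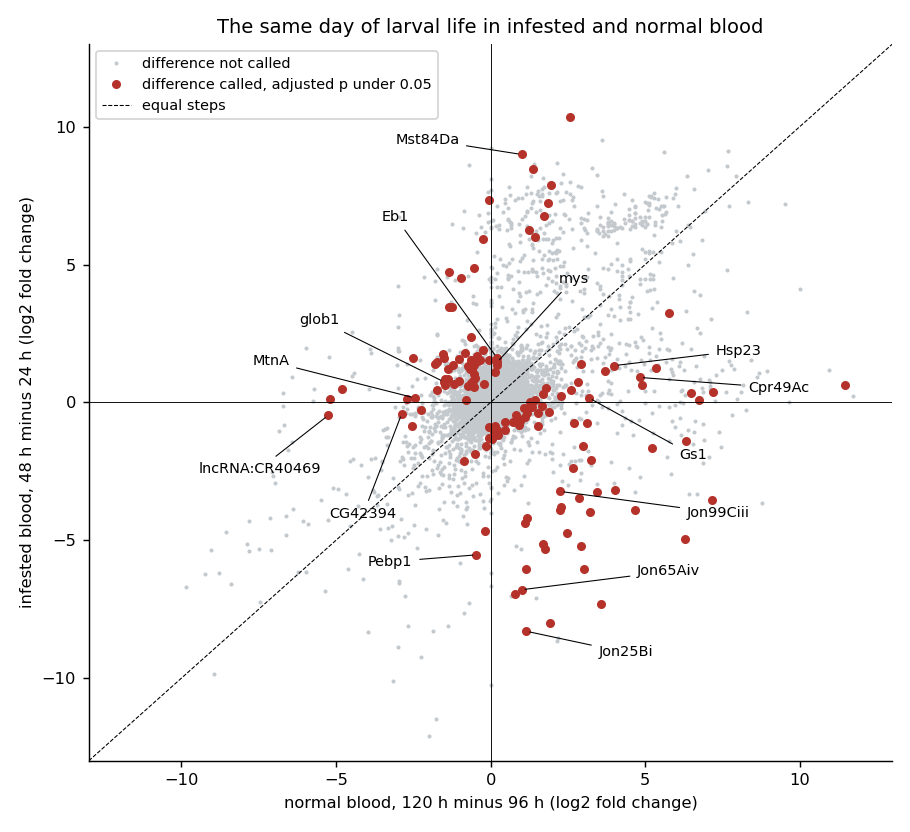
Log2 fold change of each tested gene between the 2 ages in normal blood, x axis, and in infested blood, y axis, with the dashed line where both are equal and the 141 genes whose step differed by the edgeR test in red. Jon99Ciii lies at a rise in normal and a fall in infested blood, with a difference of -5.49, and CG42394 and glob1 lie above the line.

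Isoform usage differed between 48 h and 24 h for 24 of 1609 genes with at least 2 transcripts tested, or 1.49% (edgeR diffSpliceDGE, adjusted p under 0.05), and for 41 with the replicate block. Between 22.3% and 25.9% of reads of these libraries were ambiguous between transcripts. A share is the isoform's part of its gene's transcript counts in a library. For exu, which acts in mRNA localization, the isoform exu-RD made up 13.2%, 0% and 0% at 24 h and 77.6%, 68.8% and 64.1% at 48 h (edgeR adjusted p = 0.0143). It made up 37.3% and then 72.6% in the Illumina pair. In normal blood it did not rise with age, at 50% and 45.5% and then 28.4% and 41.2%. Transcript counts per infested library were 7 to 48 for exu, 17 to 50 for CG6726 and 6.33 to 334.5 for ics. Some shares of these genes therefore rest on few counts. For Rtnl1, UQCR-Q and Plod, also described below, the lowest counts were 149, 116 and 70.5. By edgeR's Simes p-values, which left 8 calls, exu (adjusted p = 0.573) and the genes CG6726 (0.550), Rtnl1 (1) and UQCR-Q (0.149) below did not pass. For CG6726 the isoform CG6726-RA moved from 45.0%, 61.6% and 32.4% to 73.4%, 88.3% and 100% (edgeR adjusted p = 0.0493), and from 20.3% to 70.4% in the Illumina pair. In normal blood it stood at 66.7% and 59.1% and then at 69.5% and 70.8%. For the reticulon gene Rtnl1 the isoform Rtnl1-RF moved from 35.2%, 30.7% and 32.4% to 68.5%, 53.0% and 51.4% (edgeR adjusted p = 0.0109), and from 36.9% to 52.3% by Illumina. Its share rose with age in normal blood too, from 19.97% and 22.8% to 52.5% and 51.5%. For other genes the nanopore and Illumina shares differed. The isoform ics-RA, of the Ras suppressor homolog gene ics, had no count at 24 h and made up 85.6%, 85.4% and 45.8% at 48 h (edgeR adjusted p = 1.59e-05), but 0% and 1.57% by Illumina. UQCR-Q-RB, of a subunit of respiratory complex III, made up 100% of the gene in each 24 h library and 32.2% ± 0.872 (SD, n = 3) at 48 h (edgeR adjusted p = 0.0114), but 3.47% and 1.55% by Illumina. Plod-RA, of the collagen lysyl hydroxylase, named after its values were seen for its lowest p, moved from 81.7% ± 3.12 to 100% (SD, n = 3, edgeR adjusted p = 2.87e-06), and by Illumina stood at 31.98% and 33.3%. In normal blood at both ages ics-RA made up 0%, UQCR-Q-RB 100% and Plod-RA 80.8% to 82.5%.

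**Figure D5:**
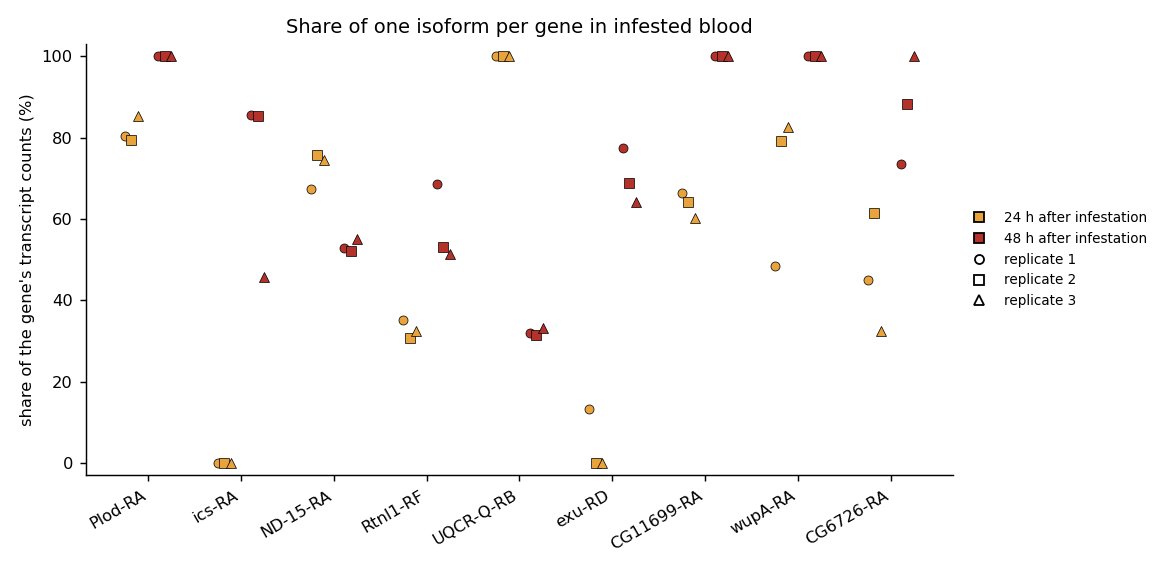
Share of the leading isoform in percent of its gene's transcript counts for 9 genes in the 3 libraries at 24 h and the 3 at 48 h of infested blood. The shares of exu-RD, CG6726-RA, Rtnl1-RF and ics-RA are higher in every 48 h library, and that of UQCR-Q-RB is lower in every one.

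The Illumina pair, 1 library per time, has no replicate check. Among 1891 genes with at least 100 CPM in either library, 110 (5.82%) were at least 2-fold higher at 48 h and 65 (3.44%) at least 2-fold lower, with 5 CPM added to each value. Of 607 genes called in the nanopore libraries that reached that level, 598 had the same sign, or 98.5%, with 375 of 384 that rose and all 223 that fell. The same share for the 1248 uncalled genes at that level is not given here, so the 98.5% stands without a baseline. By Illumina atilla stood at 563 and 1170 CPM at 24 h and 48 h, betaTub60D at 4860 and 14048 CPM, Mmp1 at 96.9 and 364 CPM, and Col4a1 at 9646 and 5363 CPM. Nplp2 stood at 3474 and 784 CPM, and Jon65Aiv at 804 and 5.69 CPM. Among the annotated non-coding genes lncRNA:marge stood at 15.2 and 149 CPM.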

How the data were processed

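Gene counts of nanopore PCR cDNA libraries (kit SQK-PCB109) were used as deposited by the authors, who counted reads per gene of their hybrid assembly. Transcript files held estimated counts deposited by the authors, which were rounded. The Illumina libraries (TruSeq stranded mRNA) held expected counts and, per the file headers, each isoform's percent of its gene, under column names that RSEM writes. The submitters' processing notes name minimap2 2.17-r941, RSEM 1.3.1, STAR 2.5.3a, FastQC 0.11.8 and StringTie 2.1.3. Their roles, the genome build, the nanopore counter and any strand setting were not given in the sources used here. Without known strand, overlapping and antisense genes cannot be told apart. Gene names and coordinates come from the BDGP6.54 annotation, which matched 13356 of 13367 FlyBase identifiers, and 354 genes of the assembly were unannotated. Ambiguous reads (0.498% to 1.29% of the infested gene tables) and reads without a feature (0.379% to 0.751%) stayed out.

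Genes kept by filterByExpr (minimum count 10, total 15), 7076 of 13721, were scaled by TMM and fitted with edgeR 4.0.16 (R 4.3.3) in 16 libraries of 6 groups, including the lymph gland groups of the same kit, so that the spread was shared. Quasi-likelihood tests were adjusted by Benjamini-Hochberg over all genes with a threshold of 0.05. Isoform usage was tested with diffSpliceDGE. Values per library are TMM-scaled CPM. DESeq2 1.42.0, limma 3.58.1 (voom) and other settings were alternatives. Summed marker lists were compared by exact permutation. Python 3.11.15 with pandas 2.3.3 and scipy 1.17.1 made the tables.

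The edgeR script was tested on simulated data for the infested comparison on 7076 genes: 39.7% of 2-fold and 90.3% of 4-fold changes were called, none with the wrong sign, and 3.125% of calls were false. In the simulated isoform swap on 1424 genes 98.0% of swaps over 4-fold were called, with 12 false calls. Simulated libraries were independent, and all simulated features shared a common dispersion (0.0508 for genes). In the real data genes differ in spread and replicate 1 stood apart. These rates therefore need not hold for the infested comparison.

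Deviations from the group means correlated at 0.295, 0.168 and 0.133 between infested libraries of the same replicate number. Between those of different number the correlation was -0.216 to 0.0938, with 0.0938 and 0.0930 between replicates 2 and 3. Whether the numbers pair the libraries is therefore not settled. The main test did not use them, and the fit with the replicate block was an alternative. The block values are given where they change a call or move a count by over 1.5 times. Standard errors are the size of the log2 fold change divided by the square root of the edgeR F statistic, so they include the spread between libraries. Floors cover counting error only.

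The comparison and the 38 gene lists were chosen with earlier results of these data known. Of the list symbols, Dl and Hop each matched more than 1 gene and were left out. Named genes are the 12 largest rises and 12 largest falls with at least 20 CPM and groups apart, the 3 list members of lowest p per list, 14 hemocyte markers, 6 non-coding and 6 numbered genes, the 8 genes with the smallest p for the difference of steps, and up to 8 genes with isoform moves of at least 20 points; some are described as groups.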

Additional observations from a re-analysis of the deposited data

Results flagged for a closer look

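In 24 genes named in the text and in the count over all genes, the step from 24 h to 48 h in infested blood differed from the step from 96 h to 120 h in normal blood by edgeR's test of the difference (adjusted p under 0.05). Values are the infested step minus the normal step on the log2 scale. The infested step was above the normal one for the adhesion and microtubule genes mys (1.24), Ilk (1.14) and Eb1 (1.41), for the metallothionein gene MtnA (2.61), for glob1 (2.24), and for CG42394 (2.46), lncRNA:CR40469 (4.78) and lncRNA:CR43264 (2.9995). It was also above for Mst84Da (7.99), Mst87F (5.02), CG7768 (5.37), RpL37-2 (5.47) and RpS5b (6.08). Those 5 genes had at most 3 reads over the 24 h group, so their fitted values depend on the prior count and are no bounds. The infested step was below the normal one for the midgut genes Jon25Bi (-9.45), yip7 (-9.94), LysB (-7.72), Jon65Aiv (-7.80) and Jon99Ciii (-5.49), of which Jon25Bi, yip7 and LysB had few reads at 48 h. It was below also for Pebp1 (-5.07), Eglp4 (-1.29), Ance (-1.44), Hsp23 (-2.67), Gs1 (-3.03) and Cpr49Ac (-3.92). Hsp23, a small heat shock gene, rose in both, by 1.34 in infested and by 4.01 in normal blood. Ance, a peptidase gene, stood at 161 to 205 CPM at 24 h and at 125 to 176 CPM at 48 h, ranges that overlapped, and rose in normal blood by 1.19. Over all genes tested the steps differed for 141. The Illumina libraries had no part in this test. In those of normal blood the midgut sum fell and the male germline sum rose with age, as in infested blood. These calls depended on the normal libraries: of the 24 genes, 13 did not pass without normal 120 h replicate 2, 13 without normal 96 h replicate 3, 10 without normal 96 h replicate 2 and 9 without normal 120 h replicate 3. Among those lost in at least 1 of these were mys, Ilk, Ance, LysB, Mst84Da, Mst87F, RpL37-2, RpS5b, Pebp1 and Eglp4.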

How the results depend on the processing

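The infested comparison called 1730 genes. It called 1711 with RLE size factors, 1520 with library totals, 1210 at a minimum count of 30, 1381 with DESeq2, 1508 with blood libraries only, 1191 with infested blood libraries only (where PPO2, fok and cact did not pass, edgeR adjusted p = 0.0511, 0.0578 and 0.0670), 1816 with limma voom, 2018 with the replicate block, 1231 after thinning to equal depth, 1603 without replicate 1 of both groups (chosen after seeing the data), and 1186 to 1714 when 1 library was left out. It called 2706 without a filter on low counts and 799 with replicates 2 and 3 summed into 1 library. In that summed setting 51 genes named or listed lost their call. Among them were atilla (edgeR adjusted p = 0.133), PPO2 (0.135), Hml (0.0699), NimC1 (0.130), Pxn (0.0902), N (0.0744), rdgB (0.0583) and axed (0.0746). The calls of glob1 (edgeR adjusted p = 0.0587), btl (0.0732), spz (0.0600), upd3 (0.0615) and Spn27A (0.183) were lost there too. The share of calls that were higher was 55.5% to 71.6% over these settings. The normal step (299) gave 660 without a filter, 529 with the replicate block and 116 to 143 when 1 library was left out. The difference of the steps (141) gave 336 with limma voom, 488 without a filter, 278 with the replicate block, 301 without replicate 1 of both infested groups, and 23 to 246 when 1 library was left out. Isoform usage (24) gave 41 with the replicate block, 8 with Simes p-values, and 13 to 24 when 1 library was left out, with 13 without infested 24 h replicate 2. The Illumina count (175) was 448 at a minimum of 20 CPM. The block added the calls of PPO1, PPO3 and 8 other genes named or listed and ended that of Diap2 (edgeR adjusted p = 0.0572) and the Ilk difference (0.0584). No called gene named in the text changed sign under the settings run; the ribosomal list median and the balance of the difference and normal-step calls did, as given beside them. Where a result moved, the cause was not tested beyond the fewer libraries or genes that the setting itself leaves. Depth limits genes near 2 to 4 CPM per library.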
